A study of Mus musculus with 6 samples.

Results

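The Il6 family of cytokines and the receptors that pair with gp130 were examined as 10 genes of the 24348 in the count table. The rule that picks them is a list of gene symbols and holds no threshold on their values. The ligands were Il6, Lif, Il11, Clcf1 and Ctf1, and the receptors were Il6st, which encodes gp130, Il6ra, Lifr, Osmr and Il11ra1. All 10 were present in the table and all 10 passed the minimum of 10 counts in at least 3 libraries.

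RNA was sequenced from fibroblasts sorted from digested synovium, the lining tissue of joints, of adult wild-type C57BL/6 mice (C57BL/6J background in the methods). Of the 6 libraries, 3 came from animals injected intravenously with immune complexes (IC), aggregates of antibody and antigen, and 3 came from control animals, which the library titles call vehicle. The labels give no dose, no interval between injection and dissection and no make-up of the control, and they do not say whether a library came from a single animal, so the p-values measure the spread between these libraries only. Total counts ranged from 40114331 to 56714304 per library.

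Cytokines of this family signal through receptor complexes that contain gp130. Il6 and Il11 first bind a receptor of their own, Il6ra or Il11ra1, which then recruits gp130, whereas Lif and Ctf1 use Lifr together with gp130, and oncostatin M uses Osmr together with gp130. Clcf1 binds Cntfr, which engages Lifr and gp130. The complexes activate Janus kinases and STAT3, and STAT3 induces Socs3, an inhibitor of the same pathway. Synovial fibroblasts are a known source of IL-6 in inflamed joints, and an Il6ra shed from other cells can make gp130-bearing cells responsive to IL-6.

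The markers of the sorted population were checked first. The 8 fibroblast markers, such as Pdgfra and Col1a1, summed to 43900 to 45600 counts scaled to an equal library total (CPM) after IC and 45100 to 54800 after vehicle. The 5 macrophage markers in the table, of 8 listed, summed to 24.0 to 36.1 CPM after IC and 27.4 to 32.8 after vehicle. The 8 endothelial markers summed to 87.4 to 145 CPM after IC and 141 to 198 after vehicle. The 11 skeletal muscle markers, satellite cell genes among them, summed to 17.9 to 47.4 CPM after IC and 46.9 to 110 after vehicle. Macrophage markers thus overlapped between the groups, while endothelial and muscle markers lay lower after IC with a narrow overlap. Some of the other marker lists had sums that did not overlap between the groups. The 5 lining fibroblast markers, among them Prg4, summed to 478 to 590 CPM after IC and 292 to 439 after vehicle, and the 5 chondrocyte and bone markers in the table to 678 to 772 and 427 to 644. The 7 mural cell markers summed to 482 to 588 CPM after IC and 591 to 631 after vehicle, and the 2 lymphocyte markers in the table to 2.65 to 3.69 and 6.53 to 8.90. The 1 neutrophil marker in the table, S100a8, of 5 listed, had 0.111 to 0.261 CPM after IC and 0 after vehicle. It had at most 12 counts in a library, too few to be tested. The summed lining fibroblast markers and the summed chondrocyte and bone markers were thus higher in every IC library, the direction of Il6. Single genes of both lists went both ways. Of the lining fibroblast markers, DESeq2 called Prg4 higher and Clic5 and Tspan15 lower, and the median log2 fold change was −0.21. Of the 4 chondrocyte and bone markers tested, Acan was called higher, Col2a1 lay lower in every IC library, and the median was 0.19. The part of these genes in the result for Il6 was not tested. In sorted bulk RNA, fewer cells of a type and less RNA per cell cannot be told apart.

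Il6 was the single member whose level differed between groups by the test across all genes, and it was higher after IC. The gene lies on chromosome 5 from 30013114 to 30019981 on the plus strand of GRCm38. Its normalized counts, which are counts divided by the DESeq2 size factor of the library, were 9669, 8776 and 12711 in IC replicates 1, 2 and 3 and 8101, 6311 and 6940 in vehicle replicates 1, 2 and 3. Every IC library lay above every vehicle library, and the gap was narrowest between IC replicate 2 and vehicle replicate 1. The IC mean was 10386 ± 2063 and the vehicle mean 7117 ± 908 (SD, n = 3 each), a 1.46-fold difference. By the Wald test of DESeq2 the log2 fold change was 0.55 ± 0.13 (SE), and the adjusted p was 0.00183 over the 16055 genes that kept an adjusted p, of 19925 tested. DESeq2 thus called 1 of the 10 members, against 2.10% of all genes tested, 1.03% being higher and 1.07% lower after IC.

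The call of Il6 depended on the test and on single libraries. On simulated counts the share of false calls lay above the nominal level for both DESeq2 and edgeR. With a simulated 1.5-fold change it was 33.6% for DESeq2 and 24.2% for edgeR, and they recovered 37.5% and 23.5% of the changed genes. With a 2-fold change the shares of false calls were 24.9% and 13.8%. Each fold was simulated a single time. Such a share depends on how many genes change, so it does not give the share of false calls in these libraries. The log2 fold change was 0.54 with the quasi-likelihood test of edgeR and 0.53 with limma-voom, but the adjusted p was 0.152 and 0.128. Neither tool called a member, while edgeR called 0.186% of all genes. At an unadjusted p under 0.05 both DESeq2 and edgeR held 3 of the 10 members (Il6, Clcf1 and Osmr), against 9.80% and 9.64% of all genes. Leaving out IC replicate 3, the highest library, lowered the log2 fold change of Il6 to 0.37 and moved its adjusted p by DESeq2 to 0.0613. Leaving out vehicle replicate 2 or 3 gave 0.0741 and 0.0854, and the other 3 fits without a library stayed under 0.05. The direction was the same in all 15 alternatives, with log2 fold changes from 0.37 to 0.65.

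**Figure D1:**
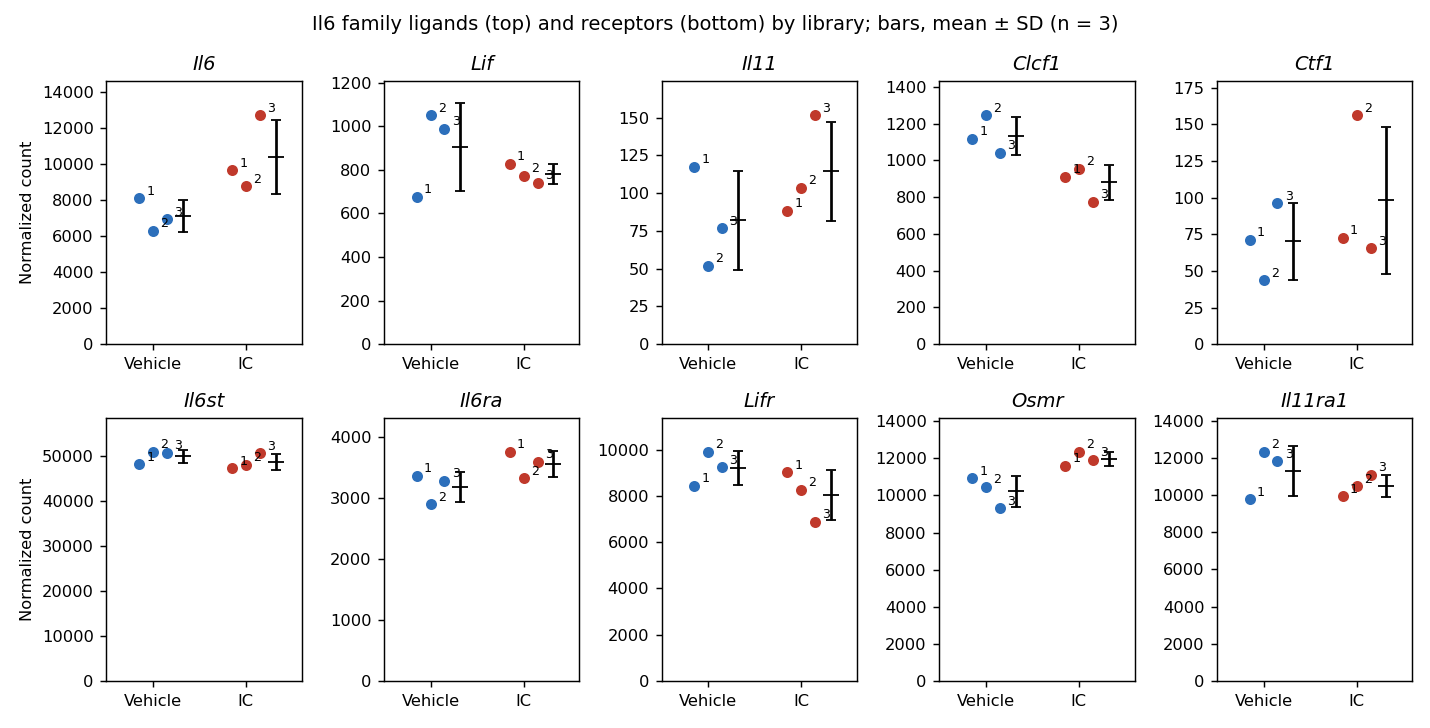
Normalized counts (y axis, from 0) of the 5 ligands (top row) and 5 receptors (bottom row) in each library, with points numbered by replicate, vehicle in blue and IC in red, and black bars for the mean ± SD (n = 3). The 3 IC libraries of Il6 lie at 8776 to 12711, above the vehicle libraries at 6311 to 8101, and Il6st lies between 47330 and 50985 in all 6 libraries.

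**Figure D2:**
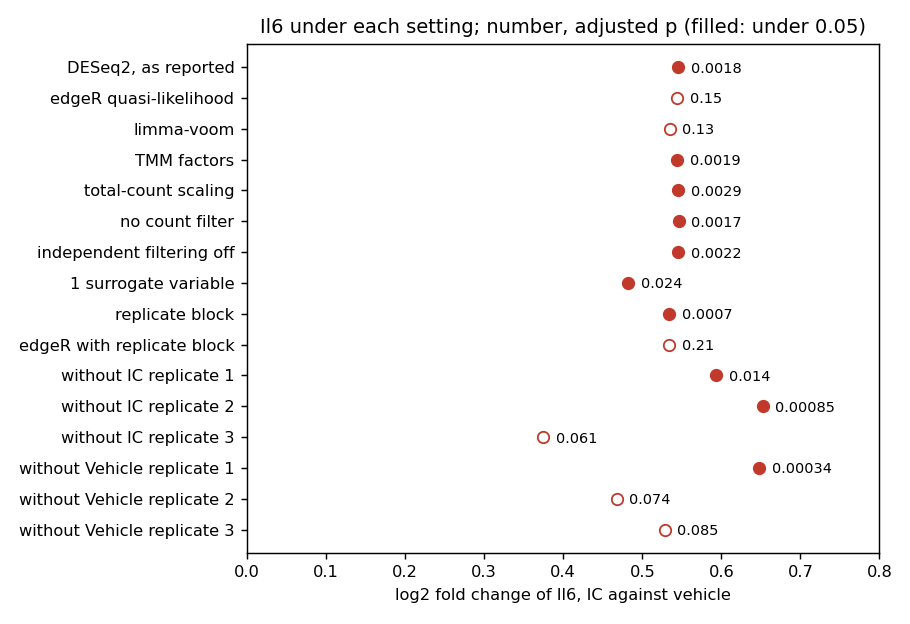
Log2 fold change of Il6, IC against vehicle (x axis), under the reported fit and each of 15 alternatives (y axis), with the adjusted p beside each point and filled points for an adjusted p under 0.05. All points lie between 0.37 and 0.65, and 9 of the 15 alternatives are filled.

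The upstream sequences of Il6 and Lif are shown because Il6 rose while Lif, a ligand of the same family, did not pass the test. RefSeq start sites on GRCm38.p6 were found for 9 of the 10 members, Clcf1 being the exception. The 250 bases before the start were searched on both strands for 6 motifs, with N for any base. They were AP-1 (TGANTCA), CRE (TGACGTCA), STAT (TTCNNNGAA), C/EBP (TTNNGNAA), NF-kB (GGG, any 3 bases, T, any base, CC) and ISRE (GAAA, any 2 bases, GAAA). Capitals mark the matches, none of which overlap. The Il6 window is chr5:30012864-30013113 on the plus strand, and the Lif window is chr11:4257318-4257567 on the plus strand.
Il6: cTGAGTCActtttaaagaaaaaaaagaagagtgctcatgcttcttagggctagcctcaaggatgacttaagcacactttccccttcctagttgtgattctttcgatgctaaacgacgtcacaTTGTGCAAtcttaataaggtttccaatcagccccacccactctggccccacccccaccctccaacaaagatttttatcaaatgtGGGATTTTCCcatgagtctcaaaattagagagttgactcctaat
Lif: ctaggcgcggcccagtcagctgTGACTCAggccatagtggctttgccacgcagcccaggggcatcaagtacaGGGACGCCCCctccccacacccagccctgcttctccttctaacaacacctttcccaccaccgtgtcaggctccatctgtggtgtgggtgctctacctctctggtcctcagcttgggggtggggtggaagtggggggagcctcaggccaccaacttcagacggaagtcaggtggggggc

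The Il6 window held an AP-1 match at bases -249 to -243 from the start, a C/EBP match at -128 to -121 and an NF-kB match at -44 to -35. The Lif window held an AP-1 match at -228 to -222 and an NF-kB match at -178 to -169. Of 32536 windows of the same length upstream of mouse genes, 6.73% held the AP-1 letters, 36.8% the C/EBP letters and 14.9% the NF-kB letters. The CRE, STAT and ISRE letters stood in 1.56%, 7.04% and 2.98% of all windows and were not matched in either of these. Of the other members, Il11 had an AP-1 match and Lifr had NF-kB matches, Il6ra had 2 C/EBP matches, and Ctf1, Il6st, Osmr and Il11ra1 had none. A match of letters is a description of the sequence and not a measurement of binding.

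Among the other ligands, Clcf1 pointed the opposite way to Il6, and Lif, Il11 and Ctf1 overlapped between groups. Clcf1 (chromosome 19, 4214238 to 4223490), the cytokine that signals through Cntfr, had 909, 955 and 775 normalized counts in IC replicates 1, 2 and 3 and 1116, 1245 and 1041 in vehicle. The 3 IC libraries lay below the 3 vehicle libraries, yet the test did not call the gene. Its log2 fold change was −0.37 (95% interval −0.64 to −0.09, adjusted p of 0.173 by DESeq2). Annotated exons of Clcf1 share 8.17% of their bases with another gene of the same strand, so a small part of these counts is uncertain. Exons of Ctf1, Il6ra and Il11ra1 share 4.77%, 2.8% and 0.179% of their bases with a gene of the opposite strand. The strand setting of the counting is not given, so a small part of their counts may be uncertain too.

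Lif (chromosome 11, 4257557 to 4272514), leukemia inhibitory factor, had 829, 772 and 741 normalized counts after IC and 676, 1050 and 989 after vehicle. Vehicle replicate 1 lay below all IC libraries and the other vehicle libraries lay above them. For Lif the log2 fold change was −0.21 (95% interval −0.55 to 0.13, adjusted p of 0.759 by DESeq2), or −0.39 with an adjusted p of 0.115 without vehicle replicate 1.

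Il11 (chromosome 7, 4772373 to 4782859), a cytokine linked to fibroblast activation and bone turnover, was low among the members. Its level per exon length lay above that of 30.4% of all tested genes. Its normalized counts were 88.2, 103 and 151 after IC and 117, 52.0 and 76.6 after vehicle. Vehicle replicate 1 fell among the IC libraries. DESeq2 gave a log2 fold change of 0.48 (95% interval −0.33 to 1.29, adjusted p of 0.791).

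Ctf1 (chromosome 7, 127712736 to 127718192), cardiotrophin 1, had 72.7, 156 and 65.4 normalized counts after IC and 71.3, 43.5 and 96.1 after vehicle. IC replicate 2 stood above the other 5 libraries. Without it the log2 fold change of 0.48 (95% interval −0.44 to 1.41, adjusted p of 0.836 by DESeq2) became −0.02.

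Il6 made up most of the ligand message in every library. Levels are compared between genes as RPKM, which are CPM divided by the exon length in kilobases. Of the summed RPKM of the 5 ligands, Il6 held 88.6%, 86.5% and 91.6% in IC replicates 1, 2 and 3 and 86.0%, 80.8% and 82.9% in vehicle. The groups did not overlap in this share, though IC replicate 2 and vehicle replicate 1 lay close together. The ratio of Il6 to Clcf1 counts, in which library depth cancels, was 10.6, 9.19 and 16.4 after IC and 7.26, 5.07 and 6.67 after vehicle. The ratio of Il6 to Lif counts was 11.7, 11.4 and 17.2 after IC and 12.0, 6.01 and 7.02 after vehicle, so here vehicle replicate 1 lay within the IC range.

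Of the receptors, none was called by DESeq2, edgeR or limma-voom, where DESeq2 called 2.10% of all genes tested. Of the 5, 1 (Osmr) had an unadjusted p under 0.05 by DESeq2, against 9.80% of all genes tested. Il6st (chromosome 13, 112464070 to 112510086), the shared chain gp130, was the steadiest member. It had 47330, 48143 and 50739 normalized counts after IC and 48246, 50985 and 50786 after vehicle. Its coefficient of variation over the 6 libraries was 3.32%, against a median of 11.3% over 13435 genes with a mean of at least 100. Those genes were not matched to Il6st in count level, and its own mean was 49371. DESeq2 put its log2 fold change at −0.04 (95% interval −0.17 to 0.10, adjusted p of 0.937).

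Osmr (chromosome 15, 6813577 to 6874969), the oncostatin M receptor chain, had 11607, 12341 and 11921 normalized counts after IC and 10927, 10479 and 9302 after vehicle. All IC libraries lay above all vehicle libraries by a small margin. Its log2 fold change was 0.22 (95% interval 0.06 to 0.39), and DESeq2 gave it an unadjusted p of 0.00685 and an adjusted one of 0.149. Osmr was called in 1 of 15 alternatives, at 0.0282 without vehicle replicate 1. Groups did not overlap for 3 of the 10 members, Il6 and Osmr with IC above and Clcf1 with IC below. Of all genes tested, 15.8% did not overlap, 8.09% with IC above and 7.67% with IC below.

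Il6ra (chromosome 3, 89864059 to 89913196), the receptor that IL-6 binds first, had 3749, 3321 and 3589 normalized counts after IC and 3361, 2893 and 3274 after vehicle. The groups overlapped through IC replicate 2 and vehicle replicate 1. By DESeq2 the log2 fold change was 0.16 (95% interval −0.03 to 0.35, adjusted p of 0.590).

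Lifr (chromosome 15, 7090614 to 7197489), the receptor chain shared by Lif, Ctf1 and Clcf1, had 9012, 8255 and 6885 normalized counts after IC and 8425, 9890 and 9237 after vehicle. The groups overlapped through IC replicate 1 and vehicle replicate 1, and the log2 fold change was −0.19 (95% interval −0.40 to 0.01, adjusted p of 0.509 by DESeq2). Lifr and Osmr are neighbors, with a gap of 215644 bases and 0 annotated protein-coding genes between them, and their log2 fold changes had opposite signs, a difference that was not tested.

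Il11ra1 (chromosome 4, 41699989 to 41769474), the receptor of IL-11, had 9928, 10458 and 11072 normalized counts after IC and 9773, 12307 and 11812 after vehicle. The vehicle libraries lay on both sides of the IC libraries, and the log2 fold change was −0.11 (95% interval −0.30 to 0.08, adjusted p of 0.806 by DESeq2). Il11ra2 is a near-identical copy of the gene, so its counts are uncertain, and sharing of reads was not tested.

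**Figure D3:**
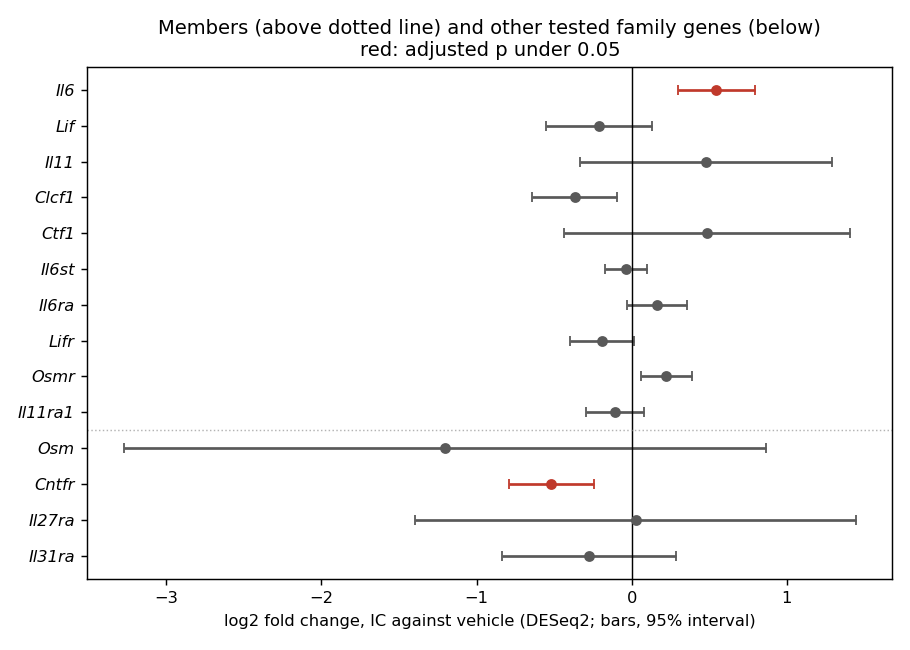
Log2 fold change of IC against vehicle (x axis) with its 95% interval for the 10 members and Osm, Cntfr, Il27ra and Il31ra (y axis), red for an adjusted p under 0.05 by DESeq2. Il6 lies at 0.55 and Cntfr at −0.52, and the intervals of Il11, Ctf1, Osm and Il27ra are the widest of the genes shown.

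Per length, gp130 and Il6 headed the family and Il11 and Ctf1 closed it. Il6st had 92.5 ± 2.09 RPKM over the 6 libraries (SD), above 98.5% of all tested genes. Il6 had 61.0 ± 9.73 RPKM in the vehicle and 89.1 ± 16.8 in the IC libraries (SD, n = 3 each). Il11ra1 followed at 50.6 ± 3.86 RPKM over the 6 libraries. Il6 lay below Il6st in 5 of 6 libraries and above Il11ra1 in 5 of 6, so the order of these neighbors was not fixed.

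The next receptors were well below. Osmr had 19.1 ± 2.08 RPKM and Lifr 16.6 ± 1.87, with overlapping ranges. Il6ra had 8.11 ± 0.77 RPKM, below Lifr in all 6 libraries, and the Il6st level was 9.83 to 13.7 times that of Il6ra. Clcf1 had 5.50 ± 0.89 RPKM and Lif 4.02 ± 0.63, and Clcf1 was above Lif in 6 of 6 libraries. Il11 had 0.98 ± 0.35 and Ctf1 0.96 ± 0.45 RPKM, which did not differ beyond their spread. With the length of the longest transcript in place of all exons, Il6 and Il11ra1 changed places, as did Il11 and Ctf1. Osmr then had 42.1 ± 4.58 RPKM and Lifr 18.6 ± 2.09, with ranges that did not overlap, and Il6st lay above Il6 in all libraries.

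**Figure D4:**
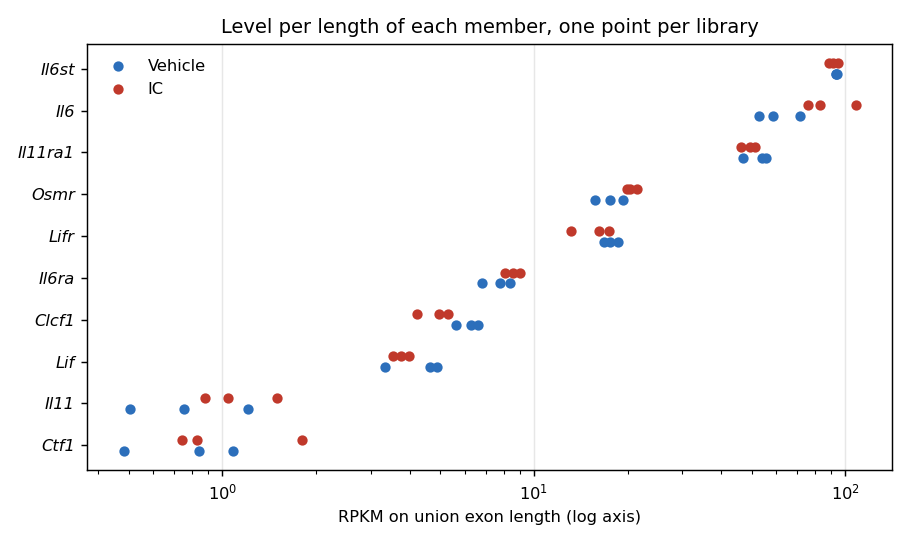
Level of each member in RPKM on union exon length (x axis, log scale), 1 point per library, vehicle in blue and IC in red, genes ordered by their mean. The levels span from about 1 RPKM for Il11 and Ctf1 to 92.5 for Il6st, and the Il6 points run from 52.7 to 108, with all IC points above the vehicle points.

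Of the family genes outside these 10, Cntfr was lower after IC. It was the one gene called by DESeq2 among Cntfr, Il31ra, Il27ra and Osm, against 2.10% of all genes tested. Il27ra and Osm had no adjusted p and so could not be called. Cntfr, the receptor that Clcf1 and ciliary neurotrophic factor bind, had 1477, 1503 and 1370 normalized counts after IC and 1692, 2501 and 2038 after vehicle. The groups did not overlap, and DESeq2 gave a log2 fold change of −0.52 ± 0.14 (SE) at an adjusted p of 0.0130. Vehicle replicate 1 lay nearest to the IC libraries.

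The call of Cntfr held in 1 of the 6 fits without a library, that without vehicle replicate 1. Its adjusted p was 0.0801, 0.0629 and 0.122 without IC replicates 1, 2 and 3, and 0.170 and 0.120 without vehicle replicates 2 and 3. By edgeR it was 0.149, and with 1 surrogate variable 0.0814. The summed skeletal muscle markers, at 17.9 to 47.4 CPM after IC and 46.9 to 110 after vehicle, lay in the same direction as Cntfr, and the 6 Schwann cell markers summed to 56.1 to 142 CPM after IC and 81.5 to 144 after vehicle. Their part in this result was not tested.

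Il31ra, Il27ra and Osm gave no call. Il31ra, which pairs with Osmr as the receptor of IL-31, had 301, 177 and 171 normalized counts after IC and 207, 294 and 285 after vehicle, a log2 fold change of −0.28 with an adjusted p of 0.849 by DESeq2. Il27ra had 18.7, 50.6 and 32.3 after IC and 49.2, 41.6 and 8.51 after vehicle. Osm, the ligand of Osmr, had 14.3, 11.4 and 3.58 after IC and 18.0, 46.3 and 2.43 after vehicle. The groups overlapped for each of these genes. DESeq2 gave Il27ra and Osm no adjusted p, since their mean counts fell under its independent filter. Cntf and Il27 had at most 13.1 and 21.9 normalized counts in any library and were not tested. Ctf2, Ebi3, Il31 and Il11ra2 were not analysed here.

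Inside the cell, the kinases and transducers of the list showed no call, and 2 feedback inhibitors moved in opposite directions. Of 19 signaling and feedback genes, 1 was called higher and 1 lower by DESeq2, against 1.03% and 1.07% of all genes, with a median log2 fold change of 0.02 against −0.0019 over all genes tested. Socs2, a suppressor best known for damping growth hormone signals, had 695, 852 and 663 normalized counts after IC and 1475, 1201 and 965 after vehicle. Socs2 fell by 0.72 on the log2 scale with an adjusted p of 0.00248 by DESeq2, which was 0.0521 without IC replicate 1 and 0.0538 without IC replicate 3. Socs3, the feedback inhibitor that binds gp130, had a log2 fold change of 0.22 with an adjusted p of 0.0305, which rose to 0.108, 0.0644 and 0.0824 without IC replicate 1, IC replicate 3 and vehicle replicate 2. By edgeR neither gene passed, at 0.108 and 0.267, and with 1 surrogate variable Socs3 was at 0.0758.

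Of 29 tested genes known as STAT3 targets, 5 were called higher and 1 lower by DESeq2, Socs3 among the higher ones, while edgeR and limma-voom each called 2. Of all 19925 genes tested, DESeq2 called 2.10%, edgeR 37 genes and limma-voom 62, and differences in share were not tested. Of the 29 targets, 10 lay above and 1 below vehicle without overlap, against 8.09% and 7.67% of all genes tested. Their median log2 fold change was 0.12, against −0.0019 over all genes tested. The list names known targets of STAT3, many of which other factors also control. It was chosen with earlier results of these data known. The called genes with the smallest adjusted p were Serpina3n, Il4ra, Timp1, Myc and Pim1, and edgeR called Serpina3n and Il4ra of these.

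Timp1, an inhibitor of matrix metalloproteinases, had 915, 1135 and 1172 normalized counts after IC and 671, 429 and 646 after vehicle. It rose by a log2 fold change of 0.89 (adjusted p of 0.000272 by DESeq2), and stayed called whichever library was left out. Myc, a growth regulator, had a log2 fold change of 0.32 with an adjusted p of 0.00591, or 0.0927 without vehicle replicate 3. Pim1, a survival kinase, had 0.37 with an adjusted p of 0.0103, and 0.0643, 0.107, 0.126 and 0.104 without IC replicate 2, IC replicate 3, vehicle replicate 2 and vehicle replicate 3. With 1 surrogate variable Pim1 was at 0.0620. Serpina3n, a protease inhibitor of the acute phase, rose by a log2 fold change of 1.71, and Il4ra, the IL-4 receptor chain, had −0.66, and both stayed called in all 6 fits without a library.

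Genes known to act on Il6 transcription or on the stability of its message, inhibitors such as Zc3h12a, Zfp36 and Nfkbia included, gave no call. Of 20 tested, 0 were called by DESeq2, edgeR or limma-voom, while 6 had an unadjusted p under 0.05 by DESeq2, against 9.80% of all genes. The smallest unadjusted p belonged to Cebpb, a factor of the C/EBP family, with a log2 fold change of 0.22 (adjusted p of 0.182 by DESeq2), and to Arid5a, which stabilizes Il6 mRNA, with 0.26 and 0.197. The lists of known Il6 regulators and of STAT3 targets both include Cebpb, Cebpd, Fos, Junb, Il1r1 and Tnfrsf1a.

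Of the 5 genes that act on the shedding of Il6ra, 1 was called higher and 1 lower by DESeq2, against 2.10% of all genes called either way, and edgeR and limma-voom called 0. Adam10, a protease that can release Il6ra from the cell surface, had 3658, 3497 and 3776 normalized counts after IC and 4387, 4380 and 4611 after vehicle. It fell by 0.29 on the log2 scale with an adjusted p of 0.0266 by DESeq2, which was 0.0809, 0.148 and 0.144 without IC replicate 1, IC replicate 2 and vehicle replicate 3. Rhbdf1, a cofactor of the protease Adam17, had a log2 fold change of 0.27 with an adjusted p of 0.0415. Of the 6 fits without a library, Rhbdf1 stayed called in that without vehicle replicate 3, and it was at 0.0781 with 1 surrogate variable, at 0.0944, 0.249 and 0.0614 without IC replicates 1, 2 and 3 and at 0.0843 and 0.107 without vehicle replicates 1 and 2.

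Immediate early genes, which tissue digestion can also induce together with Il6, were high in both groups. Of 13 tested, 2 were called higher and 0 lower by DESeq2, against 1.03% and 1.07% of all genes, and edgeR and limma-voom called 0. Fosb, an AP-1 subunit, had 338692, 356919 and 368882 normalized counts after IC and 285172, 301366 and 292450 after vehicle, a log2 fold change of 0.28 with an adjusted p of 0.00350. Nr4a1, an orphan nuclear receptor, had a log2 fold change of 0.27 with an adjusted p of 0.00637. Each kept its call whichever library was left out. Their part in the result for Il6 was not tested.

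**Figure D5:**
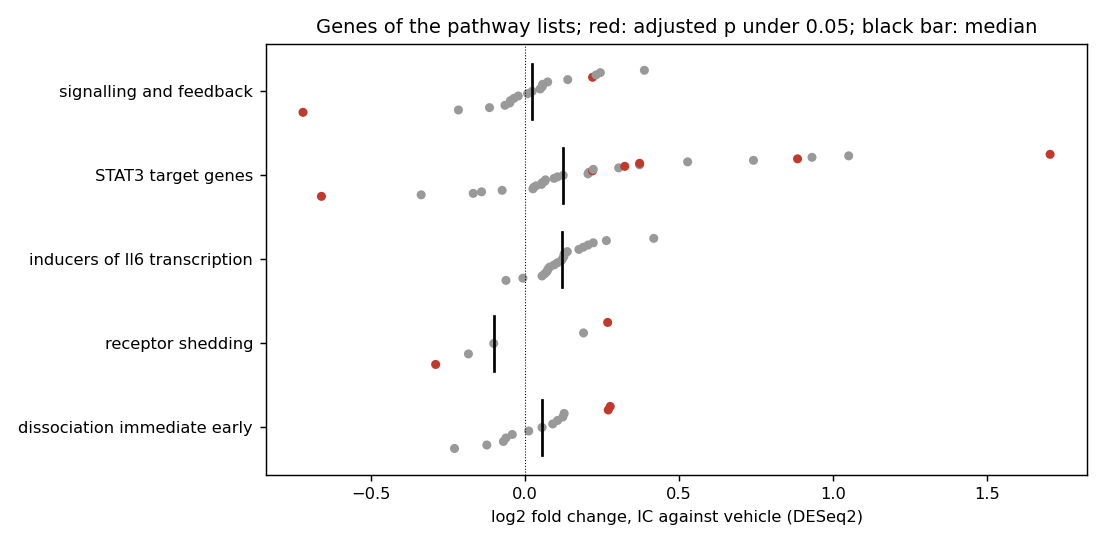
Log2 fold change of IC against vehicle by DESeq2 (x axis) for each tested gene of 5 pathway lists (y axis), red for an adjusted p under 0.05, with a black bar for the median of each list. The medians of the STAT3 targets and of the list labelled inducers of Il6 transcription lie at 0.12, and that of the receptor shedding genes at −0.10. The list labelled inducers also holds inhibitors.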

How the data were processed

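Total RNA from sorted synovial fibroblasts was sequenced in 3 IC and 3 vehicle libraries, grouped and numbered by their titles. The values deposited by the authors are unnormalized counts per gene from Trim Galore, HISAT2 (mm10) and featureCounts. Tool versions, annotation and strand setting are not given in the sources used here, and the labels and the methods name different library kits. The study removed batch effects with sva, but the labels give no batch.

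The filter on low counts (10 or more in 3 or more libraries) kept 19925 of 24348 genes and left out 0.0429% of counts. The Wald test of DESeq2 (version 1.42.0) compared IC with vehicle with treatment as the only term and Benjamini-Hochberg adjustment over the 16055 genes left by independent filtering. A gene was called at an adjusted p under 0.05. Log2 fold changes are unshrunken, and 95% intervals are the Wald intervals. Alternatives were edgeR (4.0.16), limma-voom (3.58.1), TMM or total-count scaling, no filter, no independent filtering, 1 sva (3.50.0) surrogate variable, the replicate block and each library left out. RPKM used union exon lengths and coordinates of GENCODE M21, matched by symbol for 98.2% of genes. On simulated counts both DESeq2 and edgeR returned the simulated fold changes, with a share of false calls above the nominal level, higher for DESeq2.

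Members and lists were chosen with earlier results of these data known. All members and the other family genes in the table are named, except 1 not reported here, and of each other list up to 5 called genes with the smallest adjusted p, or the 2 with the smallest unadjusted p where fewer than 2 were called. For Il6 and Il6st the 3 genes of the most similar pattern are named. Shared replicate numbers were not treated as a pairing in the main fit. IC and vehicle libraries of the same number deviated from their group means with correlations of −0.09, −0.16 and 0.02. These few values show no clear pairing but cannot exclude a shared batch.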

Additional observations from a re-analysis of the deposited data

How the results depend on the processing

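The direction of Il6, Lif, Il11, Clcf1, Il6st, Il6ra, Lifr, Osmr and Il11ra1 was the same in all 15 alternatives, and that of Ctf1 in 14. Of 150 member values under the alternatives, 143 stayed on the same side of 0.05, 6 moved above it, all for Il6, and 1 moved under it, for Osmr. The cause of each change was not tested. With edgeR's quasi-likelihood test the called genes numbered 37 over all genes, 0 members and 2 pathway list genes, against 419, 1 and 12 by DESeq2. With limma-voom they numbered 62, 0 and 2. Across the 6 fits that each left out a library they ran from 282 to 671 over all genes (671 without vehicle replicate 1), from 0 to 2 members and from 8 to 18 pathway list genes. The replicate block gave 320 genes, 1 member and 10 pathway list genes by DESeq2, and edgeR with the block, added after seeing the data, gave 22, 0 and 1. The order of levels kept 6 of 10 places with the longest transcript length and 10 with TMM-scaled library sizes. Il11, Ctf1, Osm and Il27ra had low counts and wide intervals.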

Other observations

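Some pairs of members tracked each other across libraries. Pearson r was computed on log2 normalized counts over the 6 libraries for all 45 pairs, as a description, since the points share libraries and treatment. Il6 and Clcf1 had r of −0.94 over the 6 libraries and −0.82 after the group means were removed, a step chosen after seeing the data. Il6 and Lifr had −0.90 and −0.88 in the same order, Lif and Il11 −0.89 and −0.87, and Il11 and Lifr −0.93 and −0.90. Il6 and Il11 had 0.86 and 0.85, and Il6st and Il11ra1 had 0.91 and 0.89. Of the 45 pairs, 19 had an r above 0, and 20 had a Spearman coefficient above 0.

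The genes most like Il6 in pattern over the 6 libraries, of 13434 compared, were Lss, which encodes lanosterol synthase, with r of 0.985, Smco4 with 0.984 and Eif2ak2, which encodes the RNA-activated kinase PKR, with 0.984. Those most like Il6st were Ndfip1 with 0.993, Ankrd13b with 0.991 and Zdhhc6 with 0.983. These are the highest of 13434 values of r over 6 libraries that share treatment. They are a description, and a common control of these genes was not tested.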
